A study of Mus musculus with 16 samples.

Results

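The genes described here are 32 regulators that mark or shape the projection neurons of the cerebral cortex, chosen by name from the 45724 rows of a gene table of cultured mouse neurons. All 32 names were found once. They were divided by the layer in which each is best known: 6 upper-layer factors, 9 deep-layer factors and 17 factors of both or all layers. The cells were primary neurons from the brain of C57BL/6 mice on postnatal day 0. Controls received Dulbecco's phosphate-buffered saline (DPBS), and the other groups received 1 of 3 peptides that the study attributes to the subcommissural organ, a secretory gland of the ventricular wall: NP24, Tβ10 or Tβ4. Tβ10 and Tβ4 are β-thymosins, small actin-binding peptides. Each of the 4 groups had 4 libraries of total RNA, 16 in all. Peptide concentrations, exposure times and the brain region dissected are not given in the sources used here, and nothing says that the replicates were separate cultures, so p-values measure the spread between these libraries, which may be technical.

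Projection neurons are the glutamatergic cells that send axons out of the cortex. Deep-layer neurons of layers V and VI are born first and project mainly to subcortical targets, and upper-layer neurons are born later and connect cortical areas. Their identities are held by transcription factors that repress each other's programmes: FEZF2 and BCL11B direct subcerebral fates, TBR1 with SOX5 and TLE4 corticothalamic fates, and CUX1, CUX2 and the POU factors BRN1 and BRN2 upper-layer fates. Other members act in most layers, such as the NEUROD and MEF2 families, ZBTB18 and MYT1L, which drive or stabilise neuronal differentiation. Several also act outside the cortex: Bcl11b, Foxp1 and Foxp2 are well known in striatal neurons, and the NFI factors in glia.

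Values are normalized counts, that is, reads per gene divided by 1 size factor per library. Depth ranged from 11642242 to 38254320 reads in genes, and every member was read in every library. Crym had the fewest reads (24 to 98 per library), followed by Fezf2 (75 to 311), while Mef2c had 6881 to 35325. The cultures matched their label as neurons: all 12 pan-neuronal markers were detected, with summed levels of 84968 to 95095 normalized counts in controls. The 12 midbrain and hindbrain markers in the table summed to 61.2 to 80.0 in controls; Fev and Hoxa2 were at 0 in all 4, while others were above 0 in each, such as Tal1 (13.1 to 25.8) and Th (3.48 to 37.5). The 6 markers of hippocampal granule and pyramidal neurons summed to 15280 to 19463 in controls. Whether the members' values come from cortical neurons alone was not tested. Markers of inhibitory neurons (Gad1 3640 ± 247, SD, n = 4), astrocytes, microglia and fibroblasts were present too. Tβ4 library 2 stood apart: the slope of its log2 values on log10 genomic span over 15630 genes was 0.42 (log2 per unit of log10 span), against -0.25 to 0.21 in the other 15 libraries. Mitochondrial ribosomal RNA (mt-Rnr1 plus mt-Rnr2) made up 24.3% of the reads of Tβ4 library 1 and 4.76 to 15.5% of those of the other libraries. Comparisons with Tβ4 are therefore given with and without library 2.

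Against controls, 4 of the 32 factors rose in the neurons that received NP24, where 1.16% of the 21774 genes tested were called higher and 1.47% lower. None of the 32 passed the test with Tβ10, where 0.1% of 21960 genes were called higher and 0.533% lower, or with Tβ4, where 0% of 22205 genes were called in either direction. The 4 were Cux1, Zbtb18, Bcl11b and Mef2c, higher by 27.1 to 39.3%; they include 1 upper-layer factor, 1 deep-layer factor and 2 factors of both or all layers. To place 2 of them on the genome, the bases before their starts are printed here from RefSeq (GRCm38.p6), on the gene's own strand, 5′ to 3′. Zbtb18 and Mef2c are shown because their RefSeq start coincides with the outermost start of the gene in GENCODE M21, so the 250 bases lie before any annotated transcript of the gene. Capitals mark every E-box, CANNTG, the motif that bHLH factors such as the NEUROD family bind. The Zbtb18 window is chr1:177442101-177442350 and the Mef2c window is chr13:83503784-83504033, both on the plus strand.
Zbtb18: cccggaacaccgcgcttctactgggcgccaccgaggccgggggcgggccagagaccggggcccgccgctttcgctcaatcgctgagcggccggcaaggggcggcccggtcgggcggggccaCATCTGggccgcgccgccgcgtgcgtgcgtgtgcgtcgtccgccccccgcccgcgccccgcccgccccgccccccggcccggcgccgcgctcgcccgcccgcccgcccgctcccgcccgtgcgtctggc
Mef2c: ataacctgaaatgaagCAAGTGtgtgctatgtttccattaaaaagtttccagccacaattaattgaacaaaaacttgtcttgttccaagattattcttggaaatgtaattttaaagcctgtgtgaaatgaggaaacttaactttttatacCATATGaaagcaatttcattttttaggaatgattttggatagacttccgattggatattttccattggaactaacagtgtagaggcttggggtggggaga
The single E-box of Zbtb18, CATCTG, is the reverse strand reading of CAGATG, the form preferred by NEUROD factors. Mef2c has 2 E-boxes, neither of that form. Promoter windows were matched for 27 of the 32 members. For 11 of these the RefSeq start used coincided with the outermost GENCODE start. The starts used for Sox5, Nfia and Nfix lay 834871, 190791 and 20262 bases from it, and Nfia is among the members counted below for the CAGATG form. An E-box on either strand was found in 14 of the 27 (51.9%) and in 66.2% of all 32851 promoters of this length. The CAGATG form was found in 4 of the 27 (14.8%) and in 14.4% of all promoters. These are matches of letters, not binding sites.

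Among the upper-layer factors, Cux1 was the member that rose with NP24. Cux1 (ENSMUSG00000029705, chr5:136248135-136567490, minus strand, 34 merged exons in GENCODE M21, GRCm38) encodes a homeodomain factor that shapes dendrites and synapses of upper-layer neurons. Its normalized counts were 4679, 5008, 5647 and 5272 in control libraries 1 to 4 and 7174, 6626, 7692 and 7178 in NP24 libraries 1 to 4. Every NP24 library lay above every control library. The log2 difference was 0.48 ± 0.09 (SE), or 39.3% higher, with adjusted p = 0.0045 (limma-trend, Benjamini-Hochberg over 21774 genes). The authors' deposited table gives Cux1 a log2 fold change of 0.48 with adjusted p = 0.0046, the 1 member under 0.05 there for NP24. Of the 32 members, limma called 4 higher and 0 lower (unadjusted p under 0.05: 8 higher and 2 lower; DESeq2 called 6 higher and 0 lower, and edgeR 3 and 0). Over all genes DESeq2 called 2.6% higher and 2.81% lower, and edgeR 0.96% and 1.42%. Cux1 kept its call in all 8 fits that left out 1 library (adjusted p 0.0024 to 0.039), and missed it at 0.058 when the spread was taken from all 16 libraries.

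The other upper-layer factors did not pass the test with NP24. Cux2, the close relative of Cux1, had a log2 difference of 0.15, Rorb, a nuclear receptor of layer IV, 0.09, and Pou3f3 (BRN1) 0.02. Pou3f2 (BRN2) stood at -0.13 and Lhx2, a LIM homeodomain factor of cortical progenitors, at -0.02.

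Bcl11b was the deep-layer factor that rose with NP24. It (ENSMUSG00000048251, chr12:107910403-108003602, minus strand, 4 merged exons) encodes the zinc finger protein CTIP2, which directs the axons of corticospinal neurons and also marks striatal neurons and interneurons. Control libraries 1 to 4 held 3758, 4049, 4196 and 3853 normalized counts and NP24 libraries 1 to 4 held 5020, 5440, 4955 and 4747. The groups did not overlap. The log2 difference was 0.35 ± 0.08 (SE), adjusted p = 0.031. The call was lost without control library 1, 2 or 4 or NP24 library 1 or 3, where adjusted p reached 0.12. Those fits called 0.498 to 1.49% of all genes, against 2.63% in the main fit. In the authors' deposited Wald test the adjusted p of Bcl11b was 0.056.

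Fezf2 and Crym, also of the deep layers, had differences of opposite sign and did not pass the test. Fezf2, the selector of subcerebral identity, is a low gene here: 196, 138, 191 and 166 normalized counts in controls against 99.1, 103, 138 and 127 with NP24. NP24 library 3 reached the lowest control, and the difference was -0.56 ± 0.22 (SE), adjusted p = 0.18. Crym, whose product binds thyroid hormone and is not a DNA-binding factor, marks corticospinal neurons of layer V; it had 28.4, 22.5, 33.0 and 20.9 in controls and 51.0, 28.8, 47.5 and 45.4 with NP24. Its difference was 0.69 ± 0.41 (SE), adjusted p = 0.41, on 98 reads or fewer per library. The other 6 deep-layer factors lay between -0.18 (Etv1, an ETS factor of layer V) and 0.11 (Sox5 and Tbr1), with Foxp2, Tle4 and Ldb2 between them.

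Of the factors of both or all layers, Zbtb18 and Mef2c rose. Zbtb18 (ENSMUSG00000063659, chr1:177442351-177450764, plus strand, 7 merged exons) encodes a repressor needed for cortical neurons to mature and leave their progenitor state. Its controls held 4551, 4828, 4861 and 4198 and the NP24 libraries 5872, 6191, 6051 and 5537. The difference was 0.36 ± 0.08 (SE), adjusted p = 0.025, with no overlap. The call was lost without the same 5 libraries as that of Bcl11b, at adjusted p of up to 0.098. For Zbtb18 the authors' deposited Wald test gives an adjusted p of 0.40.

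Mef2c (ENSMUSG00000005583, chr13:83504034-83667080, plus strand, 21 merged exons) encodes a MADS-box factor that controls the number of excitatory synapses. It held 11888, 14348, 14767 and 10253 in controls and 15954, 16266, 17896 and 17580 with NP24. The lowest NP24 library was above the highest control, and the difference was 0.42 ± 0.10 (SE), adjusted p = 0.036. The authors' deposited Wald test gives Mef2c an adjusted p of 0.25, and edgeR did not call it. Without control library 1 or 4 or NP24 library 1 or 3 it did not pass (up to 0.14). Those fits called 0.498 to 1.49% of all genes. Mef2a and Mef2d, relatives of Mef2c, differed by 0.12 and 0.04 and did not pass.

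Myt1l, Neurod6, Emx1 and Nfia were the next members by p. Myt1l, a zinc finger repressor of non-neuronal genes, stood at 11087, 13532, 14105 and 11394 in controls and at 14971, 13745, 16587 and 16475 with NP24 (0.31 ± 0.10, SE; adjusted p = 0.095). Only NP24 library 2 fell within the control range. Neurod6, a bHLH factor of differentiating projection neurons, stood at 1903, 1899, 1740 and 1692 against 2191, 2380, 2182 and 2034 (0.28 ± 0.09, SE; adjusted p = 0.11). Its groups did not overlap. Emx1, a homeodomain factor that marks the dorsal telencephalon, stood at 113, 200, 167 and 160 against 197, 260, 240 and 258 (0.59 ± 0.20, SE; adjusted p = 0.12). NP24 library 1 lay just under control library 2.

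Nfia, an NFI factor of glia and of maturing neurons, was lower in mean with NP24: 5383, 6288, 6453 and 6893 in controls and 5629, 4503, 4930 and 5763 with the peptide (-0.27 ± 0.10, SE; adjusted p = 0.16). The lowest control, library 1, lay inside the NP24 range. The remaining 11 members of the class did not pass and had log2 differences of -0.15 (Nfib) to 0.30 (Pou3f1). They were the bHLH factors Neurod1 and Neurod2, Mef2a, Mef2d, the zinc finger factor Bcl11a, the forkhead factor Foxp1, the POU factor Pou3f1, Nfib, Nfix and the LIM-only proteins Lmo3 and Lmo4.

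**Figure D1:**
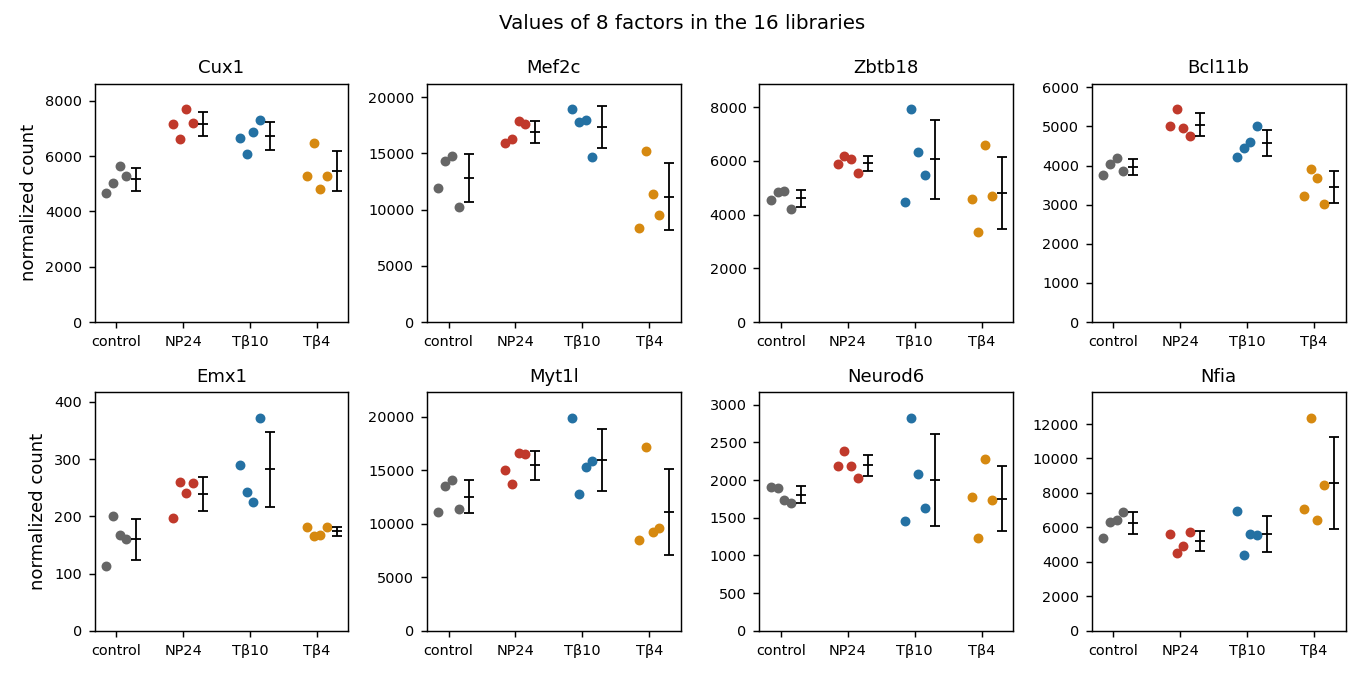
Normalized counts of 8 factors in each library (points, libraries 1 to 4 from left to right) with the mean ± SD of the group (black bar, n = 4). Each panel has its own axis from 0; in the Cux1, Mef2c, Zbtb18 and Bcl11b panels all NP24 points lie above all control points.

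Over all 32 members the median log2 difference with NP24 was 0.10, with 24 above 0 and 8 below, beside a median of -0.00 and 49.5% above 0 over all 21774 genes. With Tβ10 the median was 0.07 with 21 above 0, and with Tβ4 it was -0.01 with 16 above 0. The 3 comparisons share the same controls, so these signs are not independent. The mean with Tβ4 was 0.03, of the other sign than its median. Without Tβ4 library 2 the median was -0.02, with 15 above 0, and the mean -0.00. All NP24 libraries lay above all controls for 6 members (18.8%), Bcl11a among them, and below for 0, beside 5.07% and 4.77% of all genes. All Tβ10 libraries lay above for 4 (12.5%), Lmo4 among them, and below for 0, beside 2.96% and 3.95%. For the 4 Tβ4 libraries it was 0 and 0, beside 2.26% and 2.17%.

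Cux1 and Emx1 stood nearest to the threshold with Tβ10. None of the 32 members was called by limma (6 higher and 0 lower at unadjusted p under 0.05), DESeq2 on the recovered reads called 2, Cux1 and Emx1, and edgeR 0. Over all genes DESeq2 called 0.542% higher and 1.38% lower, and edgeR 0.0956% and 0.492%. For Emx1 the Tβ10 libraries held 289, 243, 225 and 372 normalized counts, all above the controls, a difference of 0.82 ± 0.21 (SE) with adjusted p = 0.094. In the authors' deposited table for Tβ10, Emx1 was the 1 member with an adjusted p under 0.05. Cux1 was also above all controls at 6659, 6061, 6860 and 7314 (0.38 ± 0.11, SE; adjusted p = 0.13). It passed without Tβ10 library 2 (0.43, adjusted p = 0.043).

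Mef2c and Zbtb18 overlapped the controls with Tβ10. Mef2c held 18933, 17756, 18003 and 14692 (0.45 ± 0.14, SE; adjusted p = 0.19), and library 4 fell within the control range. Zbtb18 held 4458, 7922, 6338 and 5484 (0.36 ± 0.14, SE; adjusted p = 0.33); library 1 lay among the controls and library 2 far above them. Without library 1 it passed (0.50, adjusted p = 0.040). Bcl11b, at 4223, 4460, 4606 and 5014, was above all controls by a mean difference of 0.21 ± 0.10 (SE; adjusted p = 0.47).

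The other members described above had these Tβ10 values. Myt1l held 19870, 12782, 15248 and 15877 (0.34, adjusted p = 0.38), and Neurod6 1463, 2825, 2083 and 1635 (0.10, adjusted p = 0.86). Nfia held 6942, 4409, 5613 and 5575 (-0.16, adjusted p = 0.69). In these genes libraries 1 and 2 were at opposite ends of the group: library 1 was the highest for Myt1l and Nfia and the lowest for Neurod6, and library 2 the reverse. Fezf2 held 102, 159, 141 and 128 (-0.39, adjusted p = 0.52) and Crym 49.3, 28.8, 57.6 and 44.3 (0.74, adjusted p = 0.49), and for both the groups overlapped.

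With Tβ4, no gene was called by limma (1568 of 22205 genes at unadjusted p under 0.05; DESeq2 called 75 and edgeR 0), and none of the 32 members (2 higher and 1 lower at unadjusted p under 0.05; 0 by DESeq2 and 0 by edgeR). Crym was nearest, at 109, 28.4, 54.5 and 116 normalized counts, a difference of 1.34 ± 0.46 (SE) with adjusted p = 0.55. Library 2 lay within the controls and the other 3 above them. Crym was the 1 member with an adjusted p under 0.05 in the authors' deposited table for Tβ4.

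Library 2 lay at an end of the Tβ4 group for nearly all members. Mef2c held 8391, 15255, 11420 and 9560 in Tβ4 libraries 1 to 4, Myt1l 8444, 17114, 9224 and 9613, and Nfia 7048, 12353, 6427 and 8451. Zbtb18 held 4586, 3365, 6608 and 4679, and Neurod6 1771, 1231, 2280 and 1735. Library 2 was thus the highest for the first 3 and the lowest for the latter pair. Cux1 (5293, 6478, 4803 and 5267) and Bcl11b (3229, 3920, 3676 and 3021) had library 2 on top as well. Emx1 stayed between 166 and 181 and Fezf2 between 125 and 214.

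Without Tβ4 library 2, limma called 354 of 21665 genes against controls (0.623% higher and 1.01% lower), and 3 members were among them. Crym was higher by 1.74 (adjusted p = 0.046). Cux2 and Myt1l were lower, by -0.45 (adjusted p = 0.025) and -0.46 (adjusted p = 0.048). These calls rest on 3 Tβ4 libraries.

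**Figure D2:**
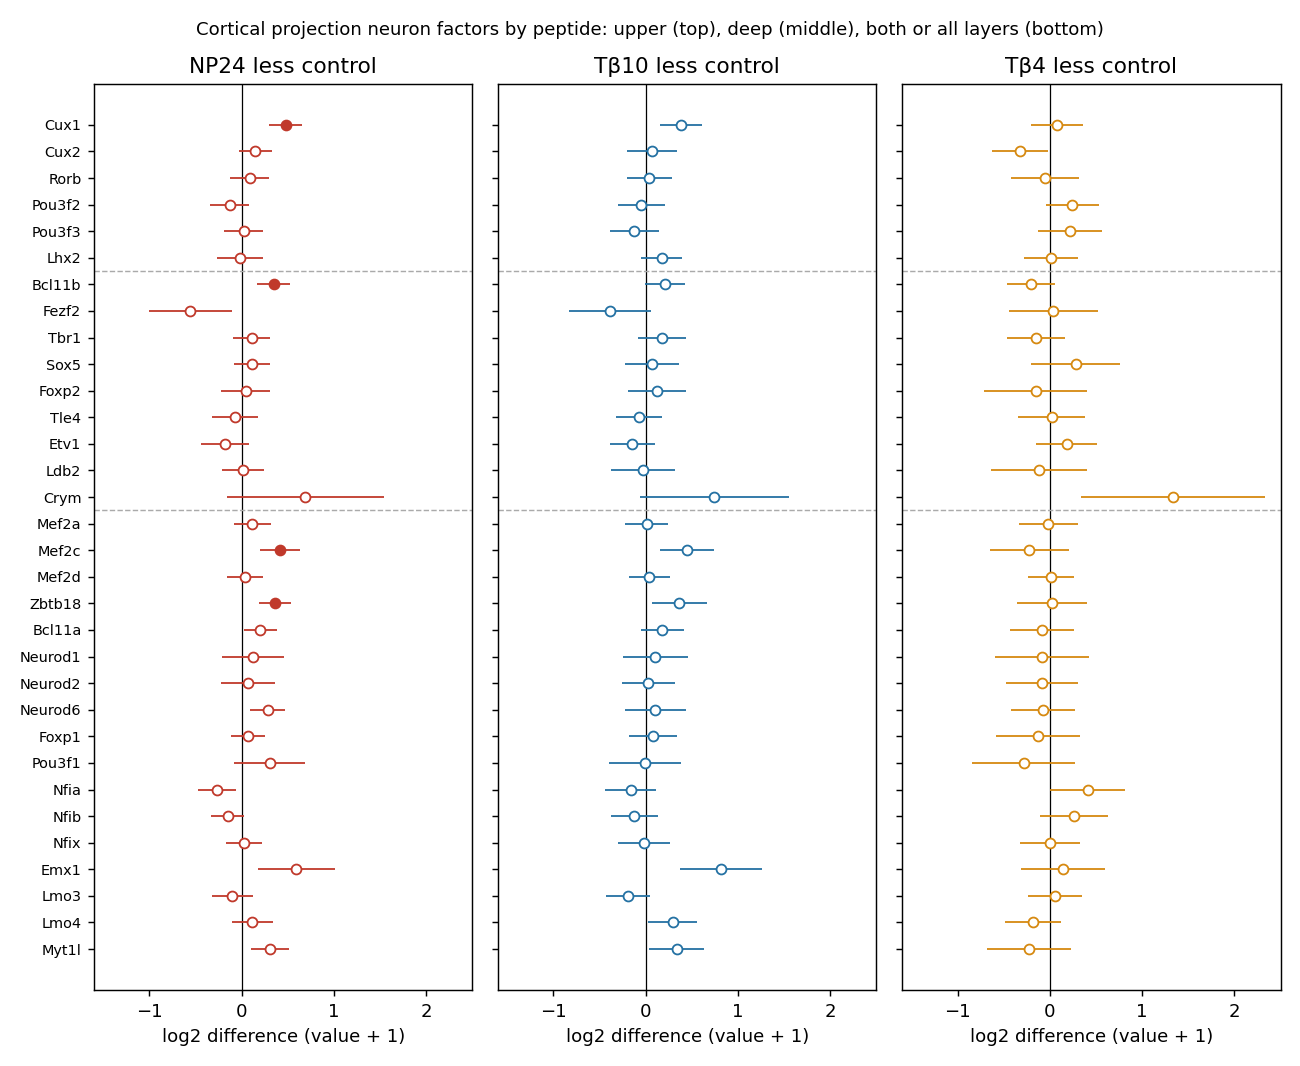
Log2 difference of each peptide from the controls (points) with its 95% confidence interval (lines) for the 32 factors; filled points passed adjusted p under 0.05. Filled points appear in the NP24 panel alone (Cux1, Bcl11b, Mef2c and Zbtb18), and intervals are widest for Crym.

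In the main fit, upper-layer and deep-layer factors had similar median differences with each peptide. No test of this contrast was run, and it varied with the setting. The median log2 difference of the 6 upper-layer factors was 0.06 with NP24, 0.05 with Tβ10 and 0.05 with Tβ4, and that of the 9 deep-layer factors 0.04, 0.07 and 0.02. Upper minus deep was therefore 0.01 with NP24, -0.02 with Tβ10 and 0.03 with Tβ4, beside a spread between libraries of 0.16, 0.13 and 0.15 (SD). That SD belongs to another measure, the difference of mean levels within each library given below, pooled over the peptide group and controls. With means in place of medians upper minus deep was 0.04, 0.01 and -0.11, so the sign differed for Tβ10 and Tβ4. Without NP24 library 4 it was 0.20 with NP24, and without Tβ4 library 2 it was 0.15 with Tβ4. The same contrast can be read as a level within each library, the mean log2 value of the upper-layer factors less that of the deep-layer factors. Control libraries 1 to 4 stood at 1.48, 1.58, 1.57 and 1.68, and those of NP24 at 1.66, 1.87, 1.58 and 1.36. Tβ10 libraries stood at 1.45, 1.81, 1.54 and 1.55, and Tβ4 libraries at 1.37, 1.31, 1.76 and 1.44. All groups overlapped. The genes differ in length, so the size of this level says nothing of the number of neurons in each layer.

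Among peptide libraries the extremes of the layer difference lay at the extremes of the length slope. The 3 libraries with the highest slopes (0.20 in NP24 library 4, 0.21 in Tβ10 library 1 and 0.42 in Tβ4 library 2) stood at 1.36, 1.45 and 1.31, and the lowest-slope library of each peptide (NP24 library 2, Tβ10 library 2 and Tβ4 library 3) at 1.87, 1.81 and 1.76. Libraries between them did not all follow this: Tβ4 library 4, with a slope of -0.09, stood at 1.44. Controls ran the other way, with the lowest slope (-0.17) in library 1 at 1.48 and the highest (-0.04) in library 4 at 1.68. With the length slope as a covariate, upper minus deep was 0.20 with NP24, 0.18 with Tβ10 and 0.10 with Tβ4 (0.14 without Tβ4 library 2, a setting added after the data were seen). With the mitochondrial ribosomal RNA share as a covariate it was -0.11, 0.16 and 0.06. The part of the length slope in the layer difference was not otherwise tested.

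Genomic span marked out the members most plainly in Tβ4 library 2. Of the 15 members that span at least 100 kb, 14 had their highest Tβ4 value in library 2. Of the 12 members under 20 kb, 11 had their lowest value there. The median departure from the other 3 Tβ4 libraries was 0.65 (log2) for the long members and -0.63 for the short ones, and over the 32 members the departure correlated with log10 span at r = 0.88, a description over genes of 1 library. Examples chosen after their values were seen are Sox5 (4551, 7833, 3052 and 3887 in Tβ4 libraries 1 to 4) and Foxp2 (1780, 3227, 1175 and 1286), which span 953.6 and 540.6 kb.

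Tβ4 library 3 was the mirror of library 2: 10 of the 12 short members were highest and 8 of the 15 long members lowest there. Tβ10 libraries 1 and 2 were a second such pair, with 9 of the 12 short members lowest in library 1 and 9 highest in library 2. In controls the long members less the short members ranged from 2.64 to 2.80 (log2), against 2.46 to 2.91 with NP24, 2.24 to 3.06 with Tβ10 and 2.03 to 3.57 with Tβ4. The span classes were chosen after the data were seen. Against controls the members' differences showed little relation to span: r was -0.08 with NP24, -0.07 with Tβ10 and -0.06 with Tβ4 (32 genes).

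**Figure D3:**
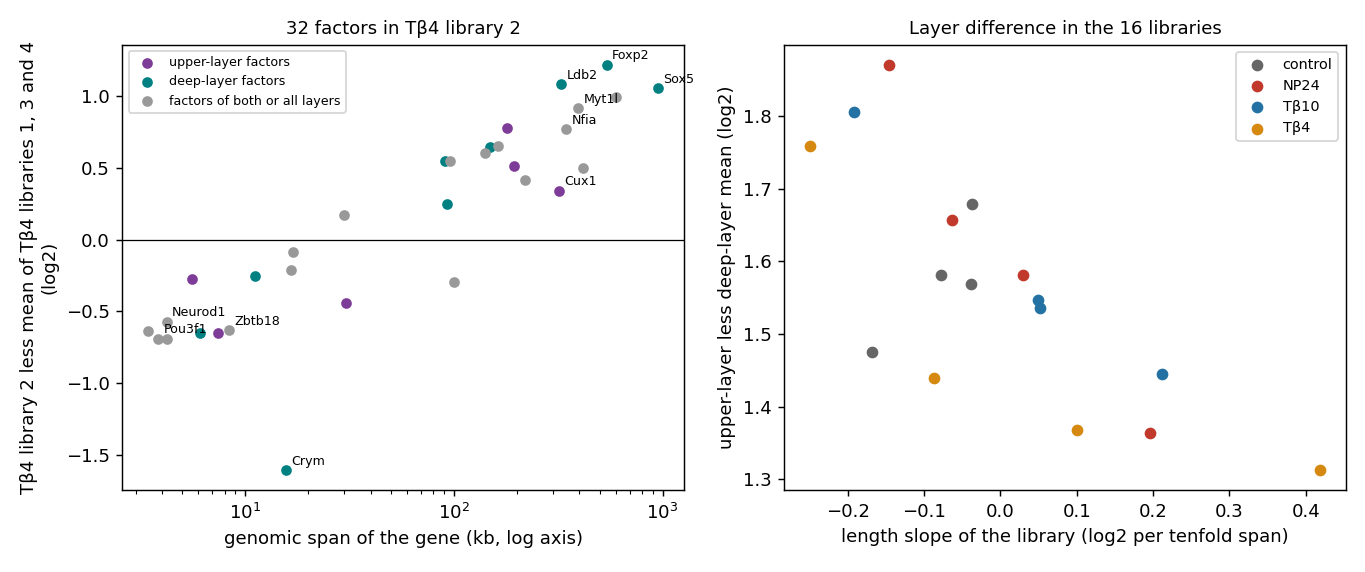
Left, log2 departure of each factor in Tβ4 library 2 from the mean of Tβ4 libraries 1, 3 and 4 against the genomic span of the gene (kb, log axis), coloured by layer. Right, upper-layer less deep-layer mean log2 value against the length slope in the 16 libraries; Tβ4 library 2 lies farthest right, at 0.42 and 1.31.

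The 3 pairs of peptides were tested against one another over 24232 genes, in a single model that held the 16 libraries. Between NP24 and Tβ4, 0.442% of genes were called higher with NP24 and 1.65% lower, and 3 of the 32 members were called. Bcl11b was higher with NP24 by 0.55 ± 0.11 (SE; adjusted p = 0.0097) and Mef2c by 0.64 ± 0.17 (SE; adjusted p = 0.048), while Nfia was lower by -0.68 ± 0.17 (SE; adjusted p = 0.041). None of these 3 overlapped between the groups, and nor did Cux1, Emx1, Pou3f2 and Nfib, which were not called. In all, 4 members lay above with NP24 (12.5%) and 3 below (9.38%), beside 2.89% and 4.65% of all genes. Without Tβ4 library 2 the 3 stayed called, at 0.61, 0.80 and -0.49, and 10 members were called in all, where 2.63% of 23994 genes were higher and 3.18% lower. The added 7 were Cux1, Cux2, Bcl11a, Foxp1 and Myt1l, higher with NP24, and Pou3f2 and Fezf2, lower. Without Tβ4 library 1, no member passed (Bcl11b 0.52, adjusted p = 0.050), and 0.437% of 23778 genes were called. Of the 8 fits that left out 1 library of these groups, 7 called Bcl11b, 2 called Nfia (without Tβ4 library 2 or 3) and 1 called Mef2c (without Tβ4 library 2).

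Between Tβ10 and Tβ4, 0.297% of genes were called higher with Tβ10 and 1.05% lower, and 1 member, Mef2c, was called (0.67 ± 0.17, SE; adjusted p = 0.047). Its groups overlapped through Tβ4 library 2, and without that library it differed by 0.83, with 8 members called and 1.88% of 23994 genes higher and 2.5% lower. Those 8 were Cux1, Cux2, Bcl11b, Mef2c, Bcl11a, Foxp1 and Myt1l, higher with Tβ10, and Pou3f3, lower. Leaving out any other library of these groups ended the call of Mef2c. Those fits called 0.366% (without Tβ4 library 1) to 1.60% (without Tβ4 library 3) of all genes. Between NP24 and Tβ10, limma called 0% of genes in either direction (591 at unadjusted p under 0.05), and no member (0 at unadjusted p under 0.05; 0 by DESeq2 and by edgeR). The differences ran from -0.22 for Emx1 (95% interval -0.63 to 0.18) to 0.31 for Pou3f1 (-0.24 to 0.86). For Cux1 the interval was -0.15 to 0.33 and for Mef2c -0.38 to 0.31, and these intervals, not adjusted for the number of genes, hold values of both signs.

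In the control libraries the members spanned a wide range of levels, given here per kb of merged exons so that genes can be compared. Nfix was the highest at 1610 ± 144 normalized counts per kb (SD, n = 4), followed by Nfib at 999.6 ± 75.8, Myt1l at 894 ± 108, Neurod6 at 841 ± 50.5 and Mef2c at 815 ± 135. From Nfib down to Zbtb18, neighbours in this order overlapped in their ranges over the 4 libraries. Ldb2, a LIM-binding cofactor of layer V neurons, was the highest deep-layer factor at 760 ± 66.5, and Pou3f3 the highest upper-layer factor at 487 ± 20.1. Bcl11b stood at 489 ± 24.2, level with Pou3f3. Lower in the order, Cux1 (257 ± 20.5), Tbr1 (248.5 ± 5.18) and Rorb (245 ± 20.1) were not separated. Fezf2 at 56.7 ± 8.80 and Crym at 7.72 ± 1.65 closed the list. Of the 31 neighbouring pairs, 26 overlapped.

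**Figure D4:**
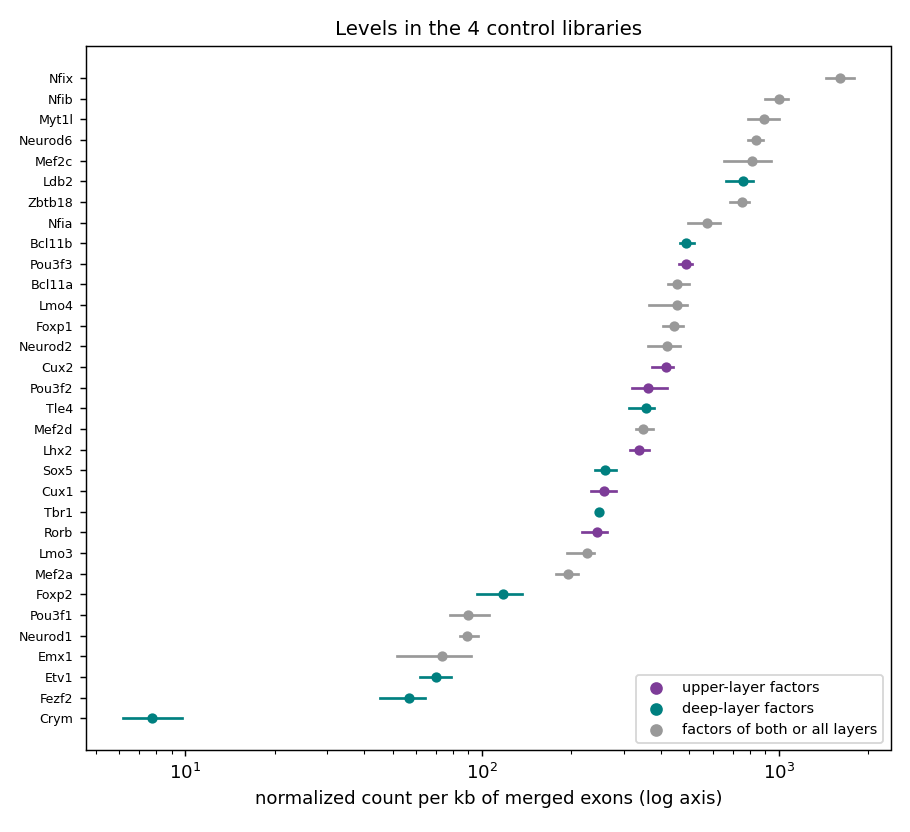
Normalized count per kb of merged exons in the 4 control libraries (log axis); points are means and lines run from the lowest to the highest library, coloured by layer. Ldb2 is the 1 factor of a single layer class among the highest 8, Nfix is highest and Crym lowest.

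The members also differed in how far replicates scattered. The median coefficient of variation was lowest among controls at 8.37%, then 10.3% for NP24, 16.5% for Tβ10 and 23.0% for Tβ4. The most variable member was Emx1 in controls (22.4%) and Crym with Tβ4 (55.1%).

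Other regulators of cortical neurons, a list of 40 genes that holds none of the members, included 4 that fell with NP24 and 0 that rose, of 38 tested (limma; unadjusted p under 0.05: 2 higher and 8 lower; DESeq2 1 higher and 4 lower; edgeR 0 and 4). They were Tshz2 (-0.81 ± 0.14, SE), a zinc finger factor, the co-repressor Tle2 (-0.63 ± 0.12), Otx1 (-1.01 ± 0.25), a homeodomain factor of layers V and VI and of progenitors, and Myt1 (-0.41 ± 0.11), a relative of Myt1l. The median of the 38 was -0.11. Tshz2 fell with Tβ10 as well (-1.16 ± 0.12, SE; adjusted p = 9.3e-05), the 1 call of the list in that comparison. With Tβ4 the list had 0 calls by limma (3 higher and 1 lower at unadjusted p under 0.05; DESeq2 called 1 lower, edgeR 0), and 1 higher and 2 lower by limma without Tβ4 library 2.

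Surface and signalling genes of the layers were read the same way. Of 7 upper-layer genes, Inhba, an activin subunit (0.57 ± 0.11, SE), and Plxnd1, a semaphorin receptor (0.51 ± 0.11), rose with NP24. Of the 8 deep-layer genes tested, Syt6, a synaptotagmin of layer VI neurons, rose (0.59 ± 0.12, SE; adjusted p = 0.0078). The medians over each list differed between layers: for upper-layer genes 0.25 with NP24, 0.20 with Tβ10 and -0.14 with Tβ4, and for deep-layer genes 0.06, 0.04 and 0.26. Without Tβ4 library 2 the Tβ4 medians were -0.13 and 0.04, and 1 upper-layer gene was called lower. These layer differences were not tested.

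Some markers of other cells moved with the same groups. In bulk RNA, fewer cells of a type and less RNA per cell cannot be told apart. The sum of the 12 pan-neuronal markers was 84968 to 95095 in controls and 100030 to 105460 with NP24, without overlap, and 94217 to 113240 with Tβ10; all 12 had positive differences with NP24 (median 0.22), and none passed singly (6 higher and 0 lower at unadjusted p under 0.05; DESeq2 called 3, edgeR 0). All 4 tested fibroblast markers of 6 listed fell with NP24 and with Tβ10, and their list summed to 389 to 579 for controls, 138 to 191 for NP24, 132 to 186 for Tβ10 and 590 to 1941 for Tβ4 (839 to 1941 without library 2, where all 4 rose); Lum was at 0 in all controls. The 6 glutamatergic markers summed to 18487 to 20980 in controls and 16887 to 21151 with NP24, which overlap, and limma called 0 (2 higher and 0 lower at unadjusted p under 0.05; DESeq2 called 1, edgeR 0). The 11 striatal markers overlapped too, at 18721 to 21108 and 18004 to 23578. Of 4 endothelial and pericyte markers tested, Rgs5 fell with NP24 (-1.68) and with Tβ10 (-2.21). Of 8 microglial markers tested, 4 fell with NP24, and the list of 11 summed to 2066 to 2508 in controls and 1809 to 1937 with NP24. Of 10 radial glia markers, Nes, Tnc and Vim fell with NP24 (sums of 10921 to 14006 in controls and 9656 to 11535 with NP24). Of 9 oligodendrocyte lineage markers Mbp and Olig2 fell (-0.59 and -0.67), and of 10 astrocyte markers Aqp4 rose (1.70). With Tβ10 the microglial markers Lyz2 (-2.75) and Cd68 (-1.30) and the radial glia marker Nes (-0.83) fell too, and Aqp4 rose (1.67). Without Tβ4 library 2, limma called 7 of 10 astrocyte markers and 4 of 10 radial glia markers higher with Tβ4, and 0 lower. In that fit 2 of 12 inhibitory neuron markers and 1 of 12 pan-neuronal markers were lower and 0 higher. Of all genes, 0.623% were called higher and 1.01% lower there. Astrocyte markers summed to 14015 to 14966 in those Tβ4 libraries and 8989 to 10725 in controls. Reln rose with NP24 (0.43), the 1 call by limma among 12 inhibitory neuron markers tested. At unadjusted p under 0.05, 4 of them were higher and 0 lower, and DESeq2 called 2 higher and edgeR 1. The list of 14 summed to 14138 to 16547 in controls and 16620 to 17942 with NP24, without overlap. That sum holds Reln, whose mean was 3523 in controls and 4717 with NP24. The median sums were 15537 and 17114, so the rise of the list rests in large part on Reln. With Tβ10 the list summed to 16058 to 16797. The share of mitochondrial ribosomal RNA, 9.32 to 14.2% in controls and 5.98 to 8.12% with NP24, did not overlap either, so that share and the peptide cannot be told apart. With the share as a covariate, 0 of 21774 genes were called (limma; 1002 at unadjusted p under 0.05), and Cux1 stood at 0.36 with adjusted p = 0.99. The part of the marker genes in the rise of Cux1, Zbtb18, Bcl11b and Mef2c was not tested.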

How the data were processed

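Total RNA of 16 libraries was compared in 4 groups of 4, prepared with a SMARTer stranded total RNA kit per the labels' protocols. The tools named per the submitters' processing notes are featureCounts, DESeq2, FastQC and HISAT or HISAT2, with build GRCm38; versions, annotation and strand setting are not given in the sources used here. The deposited library values are signal: gene counts, scaled by the authors with 1 size factor for each library, from which whole reads were recovered (100% of nonzero values within 0.01 reads). The deposited log2 fold changes, Wald score and p-value columns are used only where the authors' table is named. The 3 deposited tables hold the same library values to within 4.9e-07.

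The 32 rows were found by gene name. Each peptide was compared with controls in the 8 libraries concerned by limma-trend on log2(value + 1), with limma 3.58.1 in R 4.3.3, which understates changes of low genes; peptides were compared in 1 fit of 16. Genes needed 10 normalized counts in at least 4 libraries, which all 32 members met in each comparison, and p was adjusted over all genes tested (threshold 0.05). No test was run over the list. The members, lists and layer classes were chosen with earlier results of these data known. Values in every library are given for members past the threshold against control and for the 6 next by smallest p over those comparisons; from other lists, at most 4 called genes per comparison are named; a call among the cell type markers is not reported here. Alternatives were count tests of those reads (DESeq2 1.42.0; edgeR 4.0.16), other scalings, pseudocounts and filters, covariates, a replicate block and leaving out each library. The fit was tested on simulated data.

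Depth was 11642242 to 38254320 reads in genes. No 2 libraries of a group agreed within counting error (lowest chi-square per degree of freedom 7.23). Positions are from GENCODE M21 (GRCm38) and promoter sequences from RefSeq (GRCm38.p6), which held 27 of the 32. Exons of 11 members overlap a gene on the opposite strand, such as Pou3f1 with Gm2164 and Cux1 with Gm16599; whether reads were counted by strand is not given, so those values are uncertain to that extent, and Neurod1 and Foxp1 overlap genes on their own strand.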

Additional observations from a re-analysis of the deposited data

Results flagged for a closer look

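In 10 of the 128 groups of 4 libraries tested over the 32 factors, 1 library stood far from the other 3; chance alone flags about 1 in 20 groups. None of the 16 groups of library measures was marked. Values are normalized counts. Tβ4 library 2 was high for Rorb (3920.72, the others 2239 to 2326), Mef2a (3867.35, the others 2461 to 2599) and Myt1l (17113.5, the others 8444 to 9613). All 3 genes span at least 100 kb, and the length slope of that library was the highest of the 16. NP24 library 2 was low for Sox5 (3427.93, the others 4203 to 4341) and Lmo3 (991.287, the others 1097 to 1117) and high for Mef2d (2402.54, the others 2055 to 2089). NP24 library 4 was low for Cux2 (4297.51, the others 4730 to 4797). Among controls, library 3 was low for Tle4 (1787.49, the others 2102 to 2163), library 2 for Lmo3 (990.589, the others 1195 to 1229) and library 4 for Lmo4 (1288.47, the others 1663 to 1737).

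In 4 cases the response to one peptide differed from the response to another by a test of the difference itself (limma on all 16 libraries). Between NP24 and Tβ4 this held for Bcl11b (log2 difference 0.548, adjusted p = 0.0097), Mef2c (0.637, adjusted p = 0.048) and Nfia (-0.679, adjusted p = 0.041). Between Tβ10 and Tβ4 it held for Mef2c (0.667, adjusted p = 0.047).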

How the results depend on the processing

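No value of the named factors changed direction from a called value under any alternative. The number of factors called with NP24 against control, 4, was 1 with no filter on low values, 0 with the spread of all 16 libraries and 0 with the mitochondrial ribosomal RNA share as a covariate; leaving out 1 library gave 1 to 5. With the length slope as a covariate it was 6 with NP24, 5 higher and Nfia lower (-0.35, limma adjusted p = 0.018). With Tβ10 it was 0, but 2 by DESeq2 and 2 with the length slope as a covariate (0 to 1 on leaving out 1 library). The 2 with the length slope were Zbtb18, higher (0.56, adjusted p = 0.0053), and Nfia, lower (-0.35, adjusted p = 0.043). With Tβ4 the number called was 0 to 3 on leaving out 1 library. The share of all genes called moved too. With NP24 it was 2.63% in the main fit, 0.904% with no filter and 4.54% with the length slope. It was 0.634% with the spread of all 16 libraries and 0% with the ribosomal RNA share. Leaving out 1 library gave 0.498 to 3.55%. With Tβ10 the share was 0.633% in the main fit, 1.93% by DESeq2 and 2.62% with the length slope. On leaving out 1 library it was 0.13 to 1.46%. With Tβ4 it was 0% in the main fit and 1.63% without Tβ4 library 2. Between NP24 and Tβ4 the 3 calls became 6 by DESeq2, 1 with no filter, 0 with the spread of the 8 libraries compared, 1 with the ribosomal RNA share, 8 with the length slope, and 0 to 10 on leaving out 1 library. Between Tβ10 and Tβ4 the 1 call became 6 by DESeq2, 0 by edgeR, 7 with library-size scaling, 0 with TMM scaling, 0 with no filter, 0 with the spread of the 8 libraries, 0 with the ribosomal RNA share, 10 with the length slope, and 0 to 8 on leaving out 1 library. Between NP24 and Tβ10 the number of factors called stayed at 0. Of all genes, 2.09% were called between NP24 and Tβ4 in the main fit, 4.84% by DESeq2 and 6.61% with the length slope. The share was 0.739% with no filter, 0.494% with the spread of the 8 libraries and 0.0289% with the ribosomal RNA share. On leaving out 1 library it was 0.437 to 5.80%. Between Tβ10 and Tβ4 it was 1.345% in the main fit, 3.33% by DESeq2, 2.53% with library-size scaling and 4.88% with the length slope. It was 1.31% by edgeR, 1.27% with TMM scaling and 0.402% with no filter. The spread of the 8 libraries gave 0.346% and the ribosomal RNA share 0.0413%. Leaving out 1 library gave 0.366 to 4.38%. The cause of these changes was not tested.

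Upper minus deep with NP24 (0.0134) was 0.202 with the length slope as a covariate, -0.113 with the ribosomal RNA share and -0.0499 to 0.195 on leaving out 1 library. With Tβ10 (-0.019) it was 0.155 with the ribosomal RNA share, 0.178 with the length slope and -0.0693 to 0.056 on leaving out 1 library; with Tβ4 (0.0271) it was -0.0698 to 0.146. The level per library, whose means were 1.58 for controls, 1.62 for NP24, 1.58 for Tβ10 and 1.47 for Tβ4, was 0.915, 1.02, 0.988 and 0.769 with broader layer lists, and 0.927, 1.05, 1.02 and 0.97 without Crym, a setting chosen after seeing the data.

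Same-numbered libraries did not pair: their correlations with the control of the same number ran from -0.0614 to 0.0748. With a replicate block the factors called were 4 with NP24, 0 with Tβ10, 0 with Tβ4, 1 between NP24 and Tβ4, 0 between Tβ10 and Tβ4 and 0 between NP24 and Tβ10. Of all genes, that block called 2.19% with NP24 and 1.41% between NP24 and Tβ4. With library-size scaling the NP24 calls over all genes were 509 higher and 257 lower, against 253 and 319. They were 363 and 269 against 107 and 400 between NP24 and Tβ4, and 449 and 165 against 72 and 254 between Tβ10 and Tβ4. With Tβ10 against control they were 56 and 67, against 22 and 117. The median of all genes moved from -0.01 to 0.13 between NP24 and Tβ4 and from -0.00 to 0.18 between Tβ10 and Tβ4. Depth limits Crym and Fezf2 most.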
